A study of Arabidopsis thaliana with 24 samples.

Results

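The genes described here encode enzymes of carbon fixation and photorespiration in Arabidopsis thaliana seedlings, followed through the acetylation of histone 3 at lysine 9 (H3K9ac), a mark found at transcribed genes. They were chosen by name, from what their products are known to do, though earlier results of these data were known by then. They are 23 genes of the Calvin-Benson cycle and 15 of photorespiration, 38 of the 17672 genes with an H3K9ac peak. All 38 had at least 1 peak. Chromatin immunoprecipitation followed by sequencing had been run by the authors on whole 2-day-old seedlings of the Columbia-0 ecotype, wild type (wt) or pifq, a quadruple mutant that lacks PIF1, PIF3, PIF4 and PIF5, transcription factors that hold back light development in darkness. Seedlings of each genotype were grown in true darkness (D), in darkness for 47 h and then for 1 h in red light of 10 μE m-2 s-1 (R1h), or under white light of 100 μE m-2 s-1 without a dark period (WLc). Seeds were plated on medium without sucrose and stratified for 4 days in darkness, and germination for true darkness was set off by 3 h of white light and ended with a far-red pulse. Every one of the 6 groups has 3 H3K9ac libraries in the labels, 18 in all, beside 6 inputs.

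The deposited table holds 1 pooled signal value per peak and group, per bp of peak, so neither the spread between replicates nor the depth of a library can be had from it. No difference below was therefore tested, and "at least 1.5-fold" states a size and not a significance. Differences are log2 differences of signal with 0.0717 added, which is 0.1 times the median signal. The addition understates the change of weak peaks. No peak of these genes lay at the lowest value of any group. A gene with several peaks is counted by the peak with the highest mean. In whole seedlings, more acetylation per cell and a larger share of cells with an acetylated gene cannot be told apart.

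The Calvin-Benson cycle works in the chloroplast stroma: Rubisco fixes CO2, the products are reduced with ATP and NADPH to triose phosphates, and a set of aldolases, phosphatases and transketolases regenerates the acceptor. Rubisco also takes up oxygen, which yields phosphoglycolate. Photorespiration salvages that carbon on a route through chloroplast, peroxisome and mitochondrion and captures again the ammonia set free by glycine decarboxylase. In darkness a germinating seedling lives on seed reserves, and the nuclear genes of both pathways are well known for their response to light.

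H3K9ac at these genes was, by the median, lowest in dark-grown wild type. The median signal of the 38 genes was 0.693 in pifq D, 0.822 in pifq R1h and 0.780 in pifq WLc, against 0.493 in wt D, 0.693 in wt R1h and 0.798 in wt WLc. Placed among all genes of the same group, the median of the members stood at percentile 42.9 in pifq D, 68.6 in pifq R1h and 58.7 in pifq WLc, and at percentile 16.3 in wt D, 43.5 in wt R1h and 64.5 in wt WLc. In wt D, 24 of the 38 genes lay below the lower quartile of all genes, against 8 of 38 in wt WLc. Signal is per bp, and the peaks nearest the start were longer than usual, at a median of 1365 bp against 901 bp for all genes. The part of peak length in these placements was not tested. Of the 6 groups, wt D had the lowest signal for 25 genes, 14 of the Calvin-Benson cycle and 11 of photorespiration. In wild type 24 genes were ordered D, R1h, WLc from low to high, whereas in pifq 15 were, and pifq R1h was above pifq WLc for 21. These orders require no minimum difference and were not counted over all genes, so no share of all genes stands beside them.

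**Figure D1:**
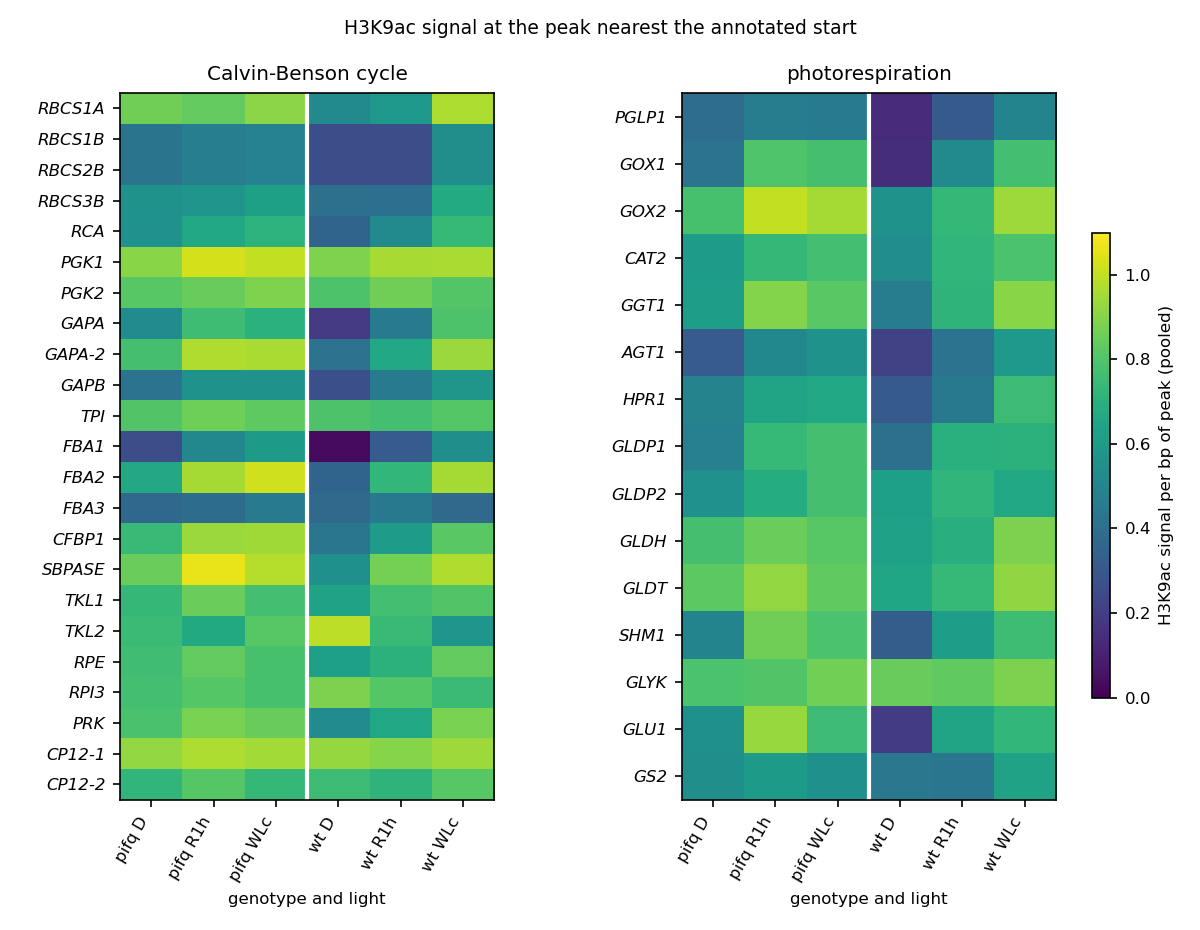
Pooled H3K9ac signal per bp of peak (colour) for each gene (rows, in pathway order) in the 6 groups (columns), at the peak nearest the annotated gene start. The wt D column holds the darkest cells, such as FBA1 at 0.0322 and PGLP1 at 0.133, whereas PGK1 and CP12-1 are bright in all 6 columns.

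The promoters of genes that stand at the ends of this range are shown first, because the study concerns transcription factors that bind short DNA boxes. Each stretch holds the 250 bases before the annotated start of the gene, read 5′ to 3′ on the strand of the gene from RefSeq TAIR10.1. Capitals mark the G-box (CACGTG), the PIF-binding element (CACATG, or CATGTG on the other strand) and the I-box core (GATAAG, or CTTATC on the other strand), searched on both strands, and no matches overlap in the promoters shown. FBA1, GAPA, GLU1 and PGLP1 had the largest differences between wt WLc and wt D, and GLYK the smallest of photorespiration, by peaks counted as above. None of these 5 held any of the motifs.
FBA1, chr2:9130620-9130869, minus strand: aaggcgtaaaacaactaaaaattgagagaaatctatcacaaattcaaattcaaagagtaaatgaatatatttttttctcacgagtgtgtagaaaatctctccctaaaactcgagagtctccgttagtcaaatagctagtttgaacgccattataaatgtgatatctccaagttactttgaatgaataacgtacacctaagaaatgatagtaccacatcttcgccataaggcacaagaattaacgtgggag
GAPA, chr3:9794612-9794861, plus strand: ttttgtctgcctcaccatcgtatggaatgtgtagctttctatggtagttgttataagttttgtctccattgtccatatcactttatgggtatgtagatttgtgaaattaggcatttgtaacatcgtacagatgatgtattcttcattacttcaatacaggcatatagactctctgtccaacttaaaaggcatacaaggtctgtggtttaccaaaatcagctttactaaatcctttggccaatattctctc
GLU1, chr5:1129535-1129784, plus strand: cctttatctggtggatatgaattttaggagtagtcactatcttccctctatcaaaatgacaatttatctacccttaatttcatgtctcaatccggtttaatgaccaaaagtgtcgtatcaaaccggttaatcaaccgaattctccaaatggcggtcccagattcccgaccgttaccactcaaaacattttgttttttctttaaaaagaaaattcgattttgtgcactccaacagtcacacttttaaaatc
PGLP1, chr5:14424611-14424860, minus strand: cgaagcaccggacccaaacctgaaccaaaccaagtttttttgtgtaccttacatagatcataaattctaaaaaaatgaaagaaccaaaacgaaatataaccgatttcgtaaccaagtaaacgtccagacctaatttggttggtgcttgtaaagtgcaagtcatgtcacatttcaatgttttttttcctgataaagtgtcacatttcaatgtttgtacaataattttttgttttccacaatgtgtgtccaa
GLYK, chr1:30216866-30217115, plus strand: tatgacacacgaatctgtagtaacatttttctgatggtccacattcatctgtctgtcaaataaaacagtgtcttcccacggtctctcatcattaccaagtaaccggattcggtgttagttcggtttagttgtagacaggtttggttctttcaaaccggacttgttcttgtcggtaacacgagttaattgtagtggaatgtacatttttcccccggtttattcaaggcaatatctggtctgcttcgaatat

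A G-box stood in 6 of the 38 promoters (15.8%), those of RBCS2B, CFBP1, TKL2, PRK, GGT1 and GLDP1, against 7.31% of 17580 promoters of all genes with a peak and an annotation. The PIF-binding element was found in 2 (5.26%, against 10.9%) and the I-box core in 5 (13.2%, against 12.5%). Of the promoters with a G-box, 3 are shown, picked after their letters were seen. RBCS2B and CFBP1 also hold I-box cores, and GLDP1 is the gene whose signal differed far more after red light than in pifq.
RBCS2B, chr5:15382072-15382321, minus strand: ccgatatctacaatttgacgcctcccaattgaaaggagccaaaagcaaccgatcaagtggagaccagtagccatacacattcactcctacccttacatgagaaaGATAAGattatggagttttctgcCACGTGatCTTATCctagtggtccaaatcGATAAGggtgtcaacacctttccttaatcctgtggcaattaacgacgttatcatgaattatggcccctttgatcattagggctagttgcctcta
CFBP1, chr3:20016587-20016836, plus strand: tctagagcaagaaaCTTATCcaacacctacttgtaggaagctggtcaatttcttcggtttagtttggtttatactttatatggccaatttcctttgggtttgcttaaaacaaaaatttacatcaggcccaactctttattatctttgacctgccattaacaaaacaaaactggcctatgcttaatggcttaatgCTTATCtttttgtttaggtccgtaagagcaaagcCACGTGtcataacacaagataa
GLDP1, chr4:15931423-15931672, minus strand: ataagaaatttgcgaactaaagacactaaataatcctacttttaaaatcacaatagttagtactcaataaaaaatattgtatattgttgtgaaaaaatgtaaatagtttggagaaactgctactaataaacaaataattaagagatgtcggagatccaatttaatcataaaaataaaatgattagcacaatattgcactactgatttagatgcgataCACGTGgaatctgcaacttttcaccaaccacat
In RBCS2B, I-box cores at -146, -115 and -94 from the gene start surround a G-box at -123. In CFBP1 a G-box at -22 follows I-box cores at -236 and -56, and GLDP1 has its G-box at -33. A match is only a run of letters, and no binding was measured in these data. The peaks themselves lay mainly inside the genes: the centre of the peak nearest the start was a median of 715 bp downstream for the 38 members, against 429 bp for all genes. Of these peaks, 13 of 38 reached upstream of the start, against 7599 of 17580 for all genes. The counted peaks of 9 members, RBCS1B, RBCS2B, CP12-2, GAPB, PGK2, FBA3, RPI3, GLDH and GOX1, also cover a longer stretch of another gene. Those of TKL1 and GLYK reach only 22 and 2 bp into a neighbour and are not among the 9. The AGT1 peak, also not among them, was entered for AT2G13363 as well.

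After 1 h of red light, H3K9ac was higher past the limit at 6 of 23 Calvin-Benson genes and 5 of 15 photorespiration genes, none of them a gene of Rubisco. In wt R1h against wt D, the 1.5-fold limit was passed upwards by 11 of the 38 genes, where 3.41% of all genes did so, and downwards by 0, where 0.628% did. The 11 genes were FBA1, FBA2, GAPA, GAPA-2, GAPB and SBPASE in the cycle, and GLU1, PGLP1, SHM1, AGT1 and GLDP1 in photorespiration. The median difference was 0.17 for the Calvin-Benson genes and 0.38 for the photorespiration genes, against 0.00 for all genes.

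White light went with higher signal at more genes of both pathways. In wt WLc against wt D, 21 of 38 genes lay 1.5-fold or more above, 13 of 23 in the cycle and 8 of 15 in photorespiration, where 7.22% of all genes were higher. TKL2 alone was at least 1.5-fold lower, where 6.16% of all genes were. The medians were nearly equal, at 0.66 for the cycle and 0.67 for photorespiration, against -0.01 for all genes. The genes past the limit had started low: 21 of the 24 members below the lower quartile in wt D were at least 1.5-fold higher (87.5%), where 28.5% of all genes below that quartile were. None of the 5 members between the quartile and the median of wt D was at least 1.5-fold higher, where 0.407% of all genes there were. None of the 9 at or above the median was, where 0% of all genes there were. The same wt D value sets both the quartile and the difference.

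The pifq mutation went with higher H3K9ac in darkness at 8 genes, RBCS1A, GAPA, GAPA-2, FBA1, FBA2 and CFBP1 of the cycle and GLU1 and PGLP1 of photorespiration. None was lower, where, of all genes, 4.54% were past the limit upwards in pifq D against wt D and 4.33% downwards. The paper, which tested peaks over replicates, reports many more genes with higher than with lower H3K9ac in dark pifq. It reports the same for wild type in white light, unlike the near-equal shares of the pooled values. Signal was above wt D, by any amount, in 30 of 38 genes, while the median difference of all genes was -0.01. Here the cycle had the larger median, 0.51, against 0.31 for photorespiration and -0.01 for all genes, but among the 26 members that are left without genes of low mean signal the photorespiration median was the larger by 0.0835. After red light, pifq R1h was at least 1.5-fold above wt R1h at GAPA and at the peak shared by RBCS1B and RBCS2B, 3 genes of 38, where 2.35% of all genes were higher and 3.58% lower. In white light the genotypes differed little: 0 of 38 genes were past the limit in pifq WLc against wt WLc, where 1.02% of all genes were higher and 0.187% lower, and the medians were 0.01 for the cycle and -0.06 for photorespiration. The counts against wt D depend on the pseudocount and the scaling. With a pseudocount of 1, 0 genes were past the limit upwards in wt R1h, 2 in wt WLc and 0 in pifq D, and with the groups scaled to the 8 reference genes 16 were in pifq D. That scaling also put the median of all genes in pifq D against wt D at 0.13.

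**Figure D2:**
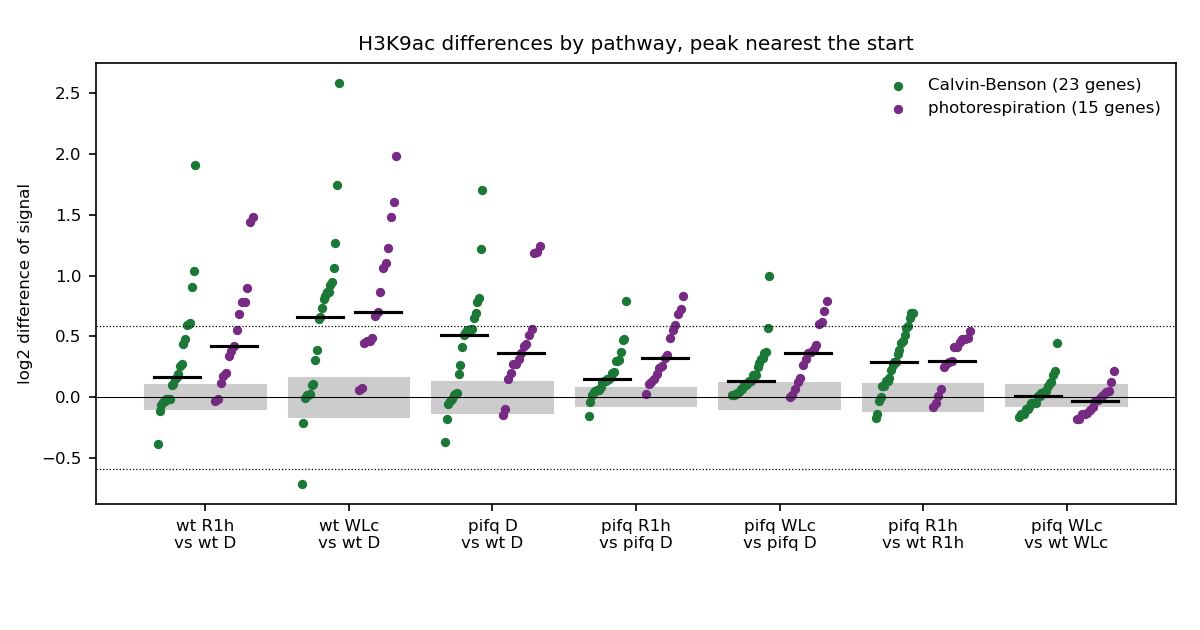
Log2 difference of pooled signal (y axis) for each gene at the peak nearest its start, in 7 comparisons (x axis), with Calvin-Benson genes in green and photorespiration genes in purple. Black bars are medians of the points, and the dotted lines 1.5-fold. The grey boxes are the quartiles of all genes by the peak with the highest mean, so points and boxes follow different peak rules. The points reach highest in wt WLc against wt D, and gather around 0 in pifq WLc against wt WLc.

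Fewer genes were past the limit between light and darkness within pifq than within wild type. In pifq R1h against pifq D, FBA1, GLU1, SHM1 and AGT1 were at least 1.5-fold higher, 4 of 38, where 1.41% of all genes were higher and 0.368% lower. In pifq WLc against pifq D the genes past the limit were FBA1, GLDP1, SHM1 and AGT1, again 4 of 38, where 3.08% of all genes were higher and 0.985% lower. In both comparisons 3 of the 4 belong to photorespiration, and its medians of 0.26 and 0.31 stood beside 0.15 and 0.13 for the cycle. The white light difference of pifq minus that of wild type was at least 1.5-fold negative for 11 genes, where 5.11% of all genes were, and positive for TKL2 alone, where 6.02% were. Its median was -0.51 for the cycle and -0.44 for photorespiration. For red light it was negative past the limit for FBA1, GLU1 and PGLP1, where 1.83% of all genes were, and positive for none, where 0.583% were, with medians of -0.07 for the cycle and -0.06 for photorespiration. Both of these differences can also be formed by taking pifq D against wt D from the genotype difference in that light. They thus reuse values of comparisons given above and are no separate result. Across the 37 distinct peaks, the red light differences of pifq and of wild type had a Pearson's r of 0.88 and the white light differences one of 0.71. These comparisons share no group, but they share peaks, pseudocount and scaling, and genes are not replicates.

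Markers of other cells and organs of the seedling differed between the same groups. Of 7 stomatal lineage markers listed, 3 had a peak. By the peak with the highest mean, all 3 lay past the limit above wt D in pifq D, with a median of 0.75. The same held in wt WLc, with 1.06, and 2 did so in wt R1h. Of all genes, 4.54%, 7.22% and 3.41% did so in these comparisons. At the peak nearest the start, the highest of the 3 signals was 0.684 in wt D, 0.652 in pifq D and 0.772 in wt WLc. By that peak, not all 3 were past the limit in pifq D or in wt WLc. Of 4 root markers with a peak (of 13), 2 were past the limit below wt D in wt WLc and in pifq D, by the peak with the highest mean. Of all genes, 6.16% and 4.33% were so. The water channel TIP2-3 stood at -2.00 and -1.32, and 0 root markers were past the limit in wt R1h. At the peak nearest the start, the median signal of the 4 was 0.697 in wt D, 0.398 in wt WLc and 0.464 in pifq D. OLEO3, an oil body protein of seeds and the only seed product gene with a peak among 6, differed from wt D by -3.73 in wt WLc, -1.81 in pifq D and -0.71 in wt R1h. The part of changed organ proportions in the results was not tested.

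The small subunit genes of Rubisco differed little from darkness after 1 h of red light. They and the activase gene RCA, 5 genes in all, were at least 1.5-fold higher in white light, and RBCS1A was so in dark pifq. RBCS1A (AT1G67090), the first gene of the small subunit, had signals of 0.860, 0.834 and 0.908 in pifq D, R1h and WLc and of 0.521, 0.587 and 0.964 in wt D, R1h and WLc. Wild type was thus near its dark level after red light, while dark pifq approached the white light level of wild type. The differences from wt D were 0.15 in wt R1h, 0.80 in wt WLc and 0.65 in pifq D. RBCS1B (AT5G38430) and RBCS2B (AT5G38420), neighbouring small subunit genes, share a peak of 4691 bp (chr5:15380560-15385251), so they give 1 measurement. It stood at 0.422, 0.470 and 0.488 in pifq D, R1h and WLc and at 0.266, 0.263 and 0.543 in wt D, R1h and WLc. The red light value of wild type was thus no higher than the dark one, and the difference between pifq R1h and wt R1h was 0.69. RBCS3B (AT5G38410), next to them on the chromosome, had 0.563, 0.572 and 0.623 in pifq D, R1h and WLc and 0.404, 0.400 and 0.672 in wt D, R1h and WLc. It followed the same course, at -0.01 for wt R1h, 0.64 for wt WLc and 0.42 for pifq D. Of all windows of 50 bases in these peaks, the read length, 15.3% at RBCS3B and 9.78% at RBCS1B and RBCS2B also occur elsewhere in the genome, so reads of the copies may be mixed. RCA (AT2G39730), the activase that frees Rubisco of bound inhibitors, differed more in red light, at 0.48, below the limit, with 0.92 in wt WLc and 0.56 in pifq D.

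The reduction steps held some of the lowest dark signals. GAPA (AT3G26650), a subunit of the chloroplast glyceraldehyde-3-phosphate dehydrogenase, had 0.529, 0.759 and 0.701 in pifq D, R1h and WLc and 0.187, 0.459 and 0.794 in wt D, R1h and WLc (chr3:9795149-9796050). Every other group was thus over 2 times as high as wt D, with differences of 1.04 in wt R1h, 1.74 in wt WLc and 1.22 in pifq D. GAPA-2 (AT1G12900), the second gene of that subunit, had 0.775, 0.970 and 0.959 in pifq D, R1h and WLc and 0.409, 0.657 and 0.933 in wt D, R1h and WLc. GAPB (AT1G42970), the other subunit, had 0.418, 0.564 and 0.563 in pifq D, R1h and WLc and 0.268, 0.447 and 0.583 in wt D, R1h and WLc. These genes differed from wt D by 0.60 and 0.61 in wt R1h, by 1.06 and 0.94 in wt WLc, and by 0.82 and 0.53 in pifq D. The phosphoglycerate kinases PGK1 (AT3G12780) and PGK2 (AT1G56190), which supply the substrate of the dehydrogenase, differed by at most 0.11 from wt D in these comparisons, and had high signals in all groups, from 0.886 to 1.03 for PGK1 and from 0.793 to 0.887 for PGK2.

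Among the regeneration enzymes, the plastid aldolase genes FBA1 and FBA2 were past the limit against wt D in wt R1h, wt WLc and pifq D, and FBA3 in none of these. FBA1 (AT2G21330) had the weakest dark signal of all 38 genes and the largest differences, at 0.266, 0.512 and 0.601 in pifq D, R1h and WLc and 0.0322, 0.318 and 0.549 in wt D, R1h and WLc (chr2:9128799-9130400). It was higher than wt D by 1.91 in wt R1h, 2.58 in wt WLc and 1.70 in pifq D. With so low a dark value these sizes depend on the pseudocount, and the ratio of wt WLc to wt D with nothing added was 17.1. FBA2 (AT4G38970) had 0.662, 0.953 and 1.02 in pifq D, R1h and WLc and 0.354, 0.727 and 0.951 in wt D, R1h and WLc. It followed FBA1 at a higher level, with differences of 0.91, 1.26 and 0.79. FBA3 (AT2G01140) stayed between 0.372 and 0.454 in all 6 groups, and its peak of 2752 bp also covers another gene.

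The 2 bisphosphatases, the steps that make regeneration irreversible, were low in wt D. CFBP1 (AT3G54050), the chloroplast fructose-1,6-bisphosphatase, had 0.741, 0.935 and 0.942 in pifq D, R1h and WLc and 0.430, 0.607 and 0.819 in wt D, R1h and WLc. It was past the limit in wt WLc, at 0.83, and in pifq D, at 0.70, and not in wt R1h, at 0.44. SBPASE (AT3G55800), the sedoheptulose-1,7-bisphosphatase, had 0.850, 1.06 and 0.978 in pifq D, R1h and WLc and 0.553, 0.872 and 0.967 in wt D, R1h and WLc. Here red light reached the limit at 0.59, and the other differences were 0.73 in wt WLc and 0.56 in pifq D. PRK (AT1G32060), the phosphoribulokinase that restores the acceptor of CO2, was past the limit in wt WLc alone of these, at 0.66, with 0.27 in wt R1h and 0.51 in pifq D.

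The remaining steps of regeneration differed less, and the transketolases in opposite directions. TKL1 (AT3G60750) had a broad peak near its start with 0.31 in wt WLc against wt D, and a peak of 201 bp farther in the gene. This narrow peak stood at 0.584, 1.00 and 0.833 in pifq D, R1h and WLc and at 0.236, 0.652 and 0.894 in wt D, R1h and WLc, which is a difference of 1.65 in wt WLc. TKL2 (AT2G45290), the second transketolase gene, was the only member past the limit downwards in any of the 7 comparisons, with 0.752, 0.668 and 0.813 in pifq D, R1h and WLc and 0.993, 0.744 and 0.578 in wt D, R1h and WLc. It differed from wt D by -0.38 in wt R1h, -0.71 in wt WLc and -0.37 in pifq D, over a peak of only 205 bp. RPE (AT5G61410), the ribulose-phosphate epimerase, was higher by 0.39 in wt WLc, while RPI3 (AT3G04790), a ribose-5-phosphate isomerase, differed by -0.21 and TPI (AT2G21170), the triose phosphate isomerase, by 0.03. CP12-1 (AT2G47400) and CP12-2 (AT3G62410), small proteins that lock phosphoribulokinase and the dehydrogenase into an inactive complex in darkness, differed by 0.02 and 0.10, and CP12-1 was high in every group, with 0.920 in pifq D and 0.928 in wt D.

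**Figure D3:**
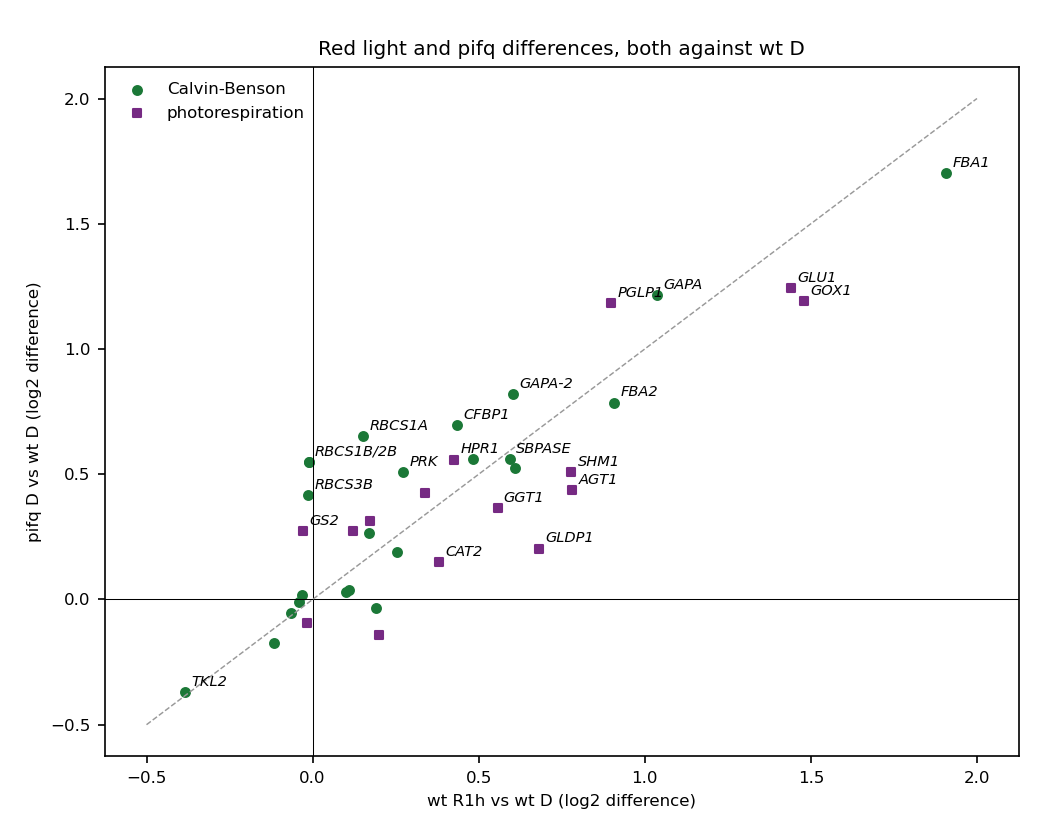
Log2 difference of wt R1h (x axis) and of pifq D (y axis), both against wt D, for each gene at the peak nearest its start, with Calvin-Benson genes as circles and photorespiration genes as squares. Both axes share the wt D values, so the spread along the dashed line of equal differences is no evidence of likeness. The RBCS genes lie above the line near 0 on the x axis, and GLDP1, AGT1, SHM1 and CAT2 lie below it.

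Photorespiration begins with PGLP1 (AT5G36700), the phosphoglycolate phosphatase, at 0.393, 0.460 and 0.448 in pifq D, R1h and WLc and 0.133, 0.310 and 0.498 in wt D, R1h and WLc. It was higher than wt D by 0.90 in wt R1h, 1.48 in wt WLc and 1.18 in pifq D. Its whole peak (chr5:14423706-14424461) has an identical copy at AT5G36790 (chr5:14483006-14483761), so the value cannot be assigned to PGLP1 alone.

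The peroxisomal step after it gave different values at different peaks. GOX1 (AT3G14420), a glycolate oxidase, had near its start (chr3:4821699-4822400) signals of 0.418, 0.799 and 0.774 in pifq D, R1h and WLc and of 0.143, 0.526 and 0.773 in wt D, R1h and WLc. These are differences from wt D of 1.48 in wt R1h, 1.98 in wt WLc and 1.19 in pifq D, the largest of photorespiration in the first and second of these. Its highest peak lies at the far end of the gene, over a neighbour, and was high and nearly level, from 0.924 to 1.13, with -0.21 in wt WLc, and it is this peak that the counts above use. With the peak nearest the start instead, 22 of 38 genes passed the limit upwards in wt WLc, 12 in wt R1h and 9 in pifq D. GOX2 (AT3G14415), the neighbouring glycolate oxidase gene, had 0.781, 0.998 and 0.954 in pifq D, R1h and WLc and 0.564, 0.732 and 0.938 in wt D, R1h and WLc, so it started higher, and it differed by 0.34, 0.67 and 0.42.

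**Figure D4:**
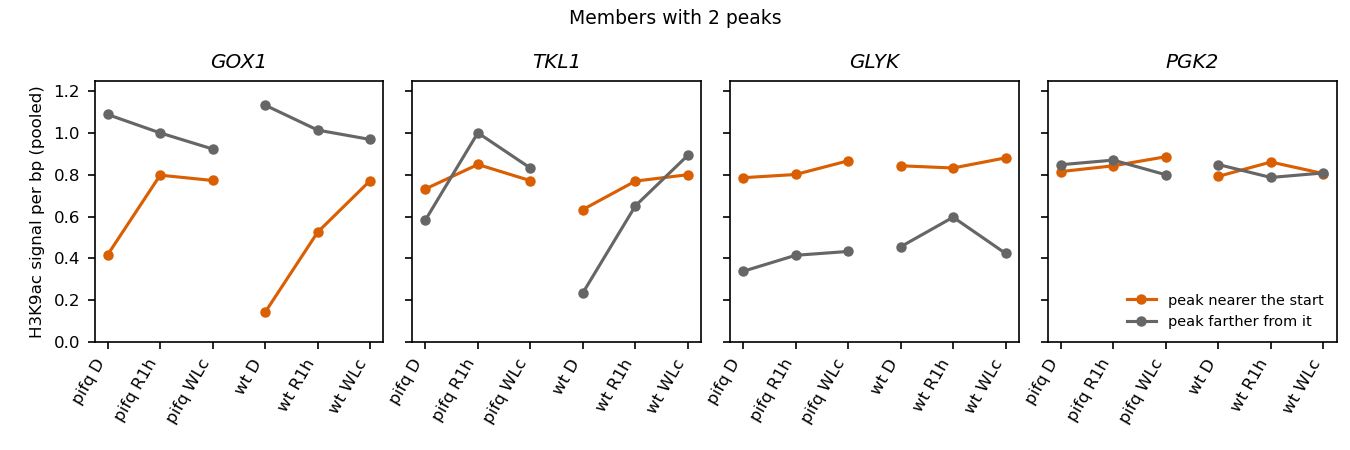
Pooled H3K9ac signal per bp (y axis) in the 6 groups (x axis) at both peaks of the 4 genes that had 2, with the peak nearer the gene start in orange and the other in grey. GOX1 and TKL1 each have a peak that is low in wt D, at 0.143 and 0.236, beside one that varies less, while both peaks of PGK2 are level.

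The other peroxisomal genes mostly had more signal in wt R1h than in pifq D. CAT2 (AT4G35090), the catalase that removes the hydrogen peroxide from glycolate oxidation, differed from wt D by 0.38 in wt R1h, 0.49 in wt WLc and 0.15 in pifq D. AGT1 (AT2G13360), an aminotransferase from serine to glyoxylate, had 0.314, 0.512 and 0.559 in pifq D, R1h and WLc and 0.213, 0.418 and 0.597 in wt D, R1h and WLc. Its differences were 0.78, 1.23 and 0.44. GGT1 (AT1G23310), the glutamate to glyoxylate aminotransferase, had 0.56, 0.87 and 0.36. HPR1 (AT1G68010), the hydroxypyruvate reductase, was the exception, with more signal in pifq D than in wt R1h, at 0.492, 0.644 and 0.658 in pifq D, R1h and WLc and 0.311, 0.443 and 0.752 in wt D, R1h and WLc, at 0.43 in wt R1h, 1.11 in wt WLc and 0.56 in pifq D.

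In the mitochondrion, the genes of glycine decarboxylase did not move as a unit. GLDP1 (AT4G33010), a gene of the P protein that decarboxylates glycine, had 0.480, 0.736 and 0.778 in pifq D, R1h and WLc and 0.408, 0.697 and 0.708 in wt D, R1h and WLc. Its red light value was thus about that of white light in both genotypes, and dark pifq was near dark wild type, at differences from wt D of 0.68 in wt R1h, 0.70 in wt WLc and 0.20 in pifq D. The second P protein gene, GLDP2 (AT2G26080), differed by 0.20, 0.07 and -0.14. The T protein gene GLDT (AT1G11860) and the H protein gene GLDH (AT2G35370) had similar values, at 0.17 and 0.12 in wt R1h, 0.46 and 0.45 in wt WLc, and 0.31 and 0.27 in pifq D. SHM1 (AT4G37930), the serine hydroxymethyltransferase that takes up the methylene group, had 0.494, 0.862 and 0.788 in pifq D, R1h and WLc and 0.326, 0.611 and 0.759 in wt D, R1h and WLc. By the peaks counted, SHM1, FBA1 and AGT1 were past the limit in both light conditions of both genotypes, SHM1 at 0.72 and 0.60 in pifq and at 0.78 and 1.06 in wild type, and so was GOX1 near its start.

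Back in the chloroplast, the ammonia genes differed from each other. GLU1 (AT5G04140), the ferredoxin-dependent glutamate synthase, had 0.553, 0.932 and 0.752 in pifq D, R1h and WLc and 0.192, 0.644 and 0.729 in wt D, R1h and WLc (chr5:1129910-1130752). Its red light value was near the white light value in wild type and above it in pifq, and its differences from wt D were 1.44 in wt R1h, 1.60 in wt WLc and 1.24 in pifq D. GS2 (AT5G35630), the plastid glutamine synthetase that works with it, had 0.549, 0.599 and 0.552 in pifq D, R1h and WLc and 0.442, 0.432 and 0.635 in wt D, R1h and WLc. Like the RBCS genes it was near its dark value in wt R1h, at -0.03, with 0.46 in wt WLc and 0.27 in pifq D, below the limit. GLYK (AT1G80380), the glycerate kinase that returns the carbon to the cycle, stayed between 0.787 and 0.882 in all groups at its main peak.

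The other lists are read against the same shares of all genes in wt WLc against wt D, 7.22% higher and 6.16% lower. Cytosolic and other isoforms of the same enzymes had medians near 0. Of 17 such genes, 15 had a peak, and in wt WLc against wt D 1 passed the limit upwards and 1 downwards, or 6.67% in the upward direction, with a median of 0.00. The higher one was FBA7, an aldolase gene, at 0.521, 0.835 and 0.873 in pifq D, R1h and WLc and 0.298, 0.518 and 0.840 in wt D, R1h and WLc. The lower was GAPCP1, a plastid glycolytic dehydrogenase, at -0.60. In wt R1h the median was 0.01 and in pifq D -0.01. Of 13 further genes of the cycle or of Rubisco assembly, 12 had a peak and 3 were higher in wt WLc (25.0%): RBCX1, a Rubisco assembly chaperone, by 2.07, the carbonic anhydrase gene BCA1 by 1.33, and CPN60B1, a chaperonin subunit, by 0.76. The median of these 12 was 0.22. Of 6 genes of redox control, TRXF1, a thioredoxin f that activates the bisphosphatases in light, was the only one past the limit (16.7% of the list), at 1.13 in wt R1h, 1.35 in wt WLc and 0.83 in pifq D. Of 21 further photorespiration genes, among them second copies and transporters, 20 had a peak, and 3 were higher in wt WLc (15.0%): PMDH2, a peroxisomal malate dehydrogenase, by 1.26, GDH3, an H protein gene, by 1.07, and GGT2 by 0.87, while the median was -0.03. None of 8 reference genes was past the limit.

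**Figure D5:**
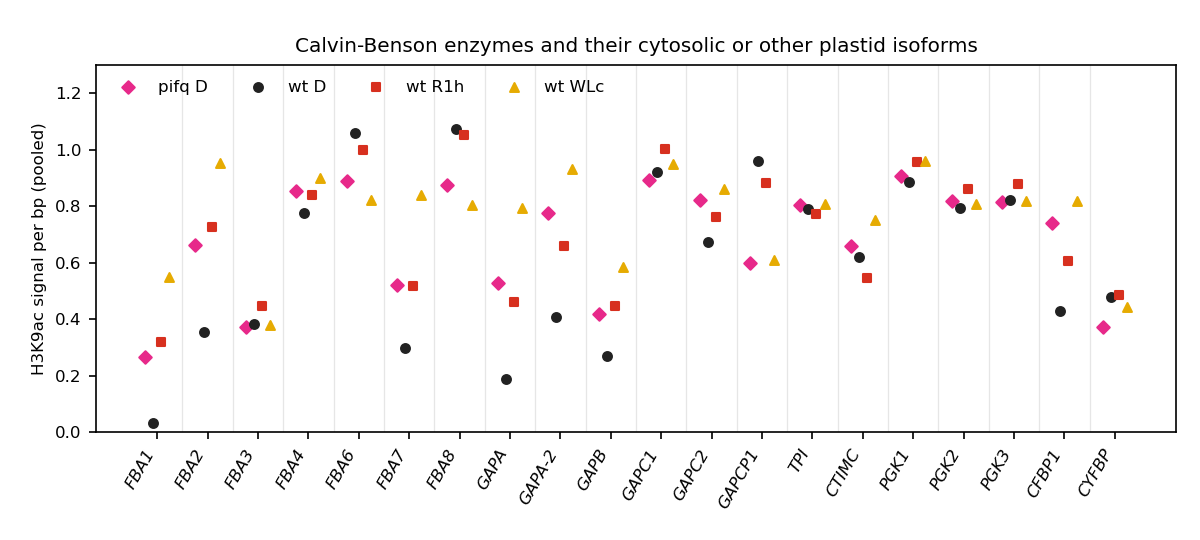
Pooled H3K9ac signal per bp (y axis) of Calvin-Benson genes and of genes for other isoforms of the same enzymes (x axis) in pifq D, wt D, wt R1h and wt WLc. In FBA1, FBA2, FBA7, GAPA, GAPA-2, GAPB and CFBP1 the black wt D point lies below the others. It also does, by smaller gaps, in PGK1, PGK2 and the isoforms FBA4 and GAPC2.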

How the data were processed

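The authors used Bowtie2 for alignment, BayesPeak for peaks, DiffBind for quantification and the nearest gene start for assignment. The deposited signal is 1 pooled value per peak and group, per bp of peak, in 19435 entries over 17319 distinct peaks; how replicates were pooled and scaled is not given in the sources used here, and depth is unknown. The methods name TAIR9 and the submitters' notes TAIR10, which share chromosome sequences, and peak positions were used with RefSeq TAIR10.1. Whether starts count from 0 or 1 is not stated. Log2 differences used a pseudocount of 0.0717 and a limit of 1.5-fold, described without a test because the planned test needs values per library. The members and gene lists were chosen with earlier results of these data known. All 38 members may be named, and up to 3 genes of each other list, those with the largest difference past the limit in wt WLc against wt D; root and seed examples were named by the same rule. Promoters were printed for the largest and smallest differences, except 1 that is not reported here. Alternatives were other pseudocounts, scalings, limits and filters, and the peak nearest the start. Python 3.11.15, numpy 2.4.6 and pandas 2.3.3 were used.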

Additional observations from a re-analysis of the deposited data

How the results depend on the processing

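Counts of genes past the limit moved with the pseudocount, the limit and the scaling. With a pseudocount of 0.5 times the median, 3 genes were higher in wt R1h, 13 in wt WLc and 4 in pifq D against wt D, 0 in pifq R1h and 1 in pifq WLc against pifq D, and 0 in pifq R1h against wt R1h; with a pseudocount of 1 these counts were 0, 2, 0, 0, 0 and 0, and with a 2-fold limit 3, 9, 4, 0, 0 and 0. With 0.01 times the median, and with no pseudocount, which was added after the data were seen, 15 genes were higher in pifq D against wt D and 5 in pifq R1h against wt R1h. Scaling to the reference genes gave 16 and 9 in these comparisons. It put the median of all genes at 0.16 in wt WLc and 0.13 in pifq D, both against wt D. In pifq R1h against wt R1h that median was 0.12. Quantile normalization left 6 genes in wt R1h. Without genes whose mean signal lay below the lower quartile, 26 members were left, with counts of 6, 11, 5, 2, 2 and 0 in the order above. Without the 9 members whose peak covers a longer stretch of another gene (an alternative added after the data were seen), 1 gene was higher in pifq R1h against wt R1h.

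The photorespiration median minus the Calvin-Benson median, 0.21 in wt R1h, 0.01 in wt WLc and -0.19 in pifq D against wt D, was 0.0813 in wt R1h, -0.0379 in pifq D and 0.0749 in pifq WLc against pifq D with a pseudocount of 1, and -0.0777 in pifq D with 0.5 times the median. Without the genes of low mean signal it was 0.185 in wt WLc, 0.0835 in pifq D, where its sign thus changed, and 0.114 in pifq R1h against wt R1h. The white light difference of pifq minus that of wild type had a median of -0.46 over all 38 genes, and of -0.30 with 0.5 times the median, -0.18 with a pseudocount of 1, -0.61 with reference genes and -0.30 without the genes of low mean signal. No paired analysis was possible because the deposited values are pooled over replicates, and leaving out a replicate was not possible for the same reason.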
